A study of Mus musculus with 6 samples.

Results

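Replication-dependent histone genes encode the linker histone H1 and the core histones H2A, H2B, H3 and H4, the proteins that package newly copied DNA. They were taken by symbol: 70 of the 38926 symbols in the count tables start with Hist1h, Hist2h, Hist3h or Hist4h, and 61 of these had at least 10 reads summed over the 6 tables. Of the 9 symbols left out, 7 had no read. The 61 genes comprise 6 H1, 15 H2A, 16 H2B, 11 H3 and 13 H4 genes, and 50 of them carry Hist1 symbols, 7 Hist2, 3 Hist3 and 1 Hist4. In the GENCODE M21 annotation of GRCm38 the Hist1 genes lie on chromosome 13, the Hist2 genes on chromosome 3, the Hist3 genes on chromosome 11 and Hist4h4 on chromosome 6. The annotation lists 3 of the 61, Hist1h2aj, Hist1h2al and Hist3h2bb-ps, as pseudogenes.

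The study measured dorsal root ganglia, the clusters of sensory neurons and their glia beside the spinal cord, by RNA sequencing of total RNA. Both groups were wild-type female C57BL/6 mice aged 8 to 10 weeks, and each of the 3 vehicle and 3 vincristine libraries came from ganglia of 4 animals, pooled from the lumbar levels L3 to L5 on the side of the treated paw. The vincristine animals are labelled as given 40 µg in all by intraplantar injection, while file names for the same libraries state 10 µg. Vincristine is a vinca alkaloid that binds tubulin, stops dividing cells in mitosis and is known for damage to peripheral nerves.

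The libraries held 12374331 to 26346304 reads in genes, the fewest in vincristine replicate 1. That library stands apart: 24.8% of its tallied alignments fell outside annotated genes, against 14.8% to 17.03% in the other 5. The ganglion label was checked with 16 sensory neuron markers, all of which were detected well enough to be tested. Their summed level was 10240 to 13230 CPM (read counts relative to the TMM-scaled size of the library) in vehicle and 4571, 10100 and 12130 CPM in vincristine replicates 1, 2 and 3. These levels are relative to all reads of a library. In pooled tissue, fewer cells of a type, less RNA per cell and more RNA from other cells therefore cannot be told apart.

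Transcripts of replication-dependent histone genes differ from other messenger RNAs in that they usually end in a conserved stem-loop and carry no poly(A) tail. The stem-loop binding protein, encoded by Slbp, binds this hairpin, and the transcripts are made and kept mainly while DNA is being copied. Some of these genes also give polyadenylated transcripts in cells that no longer divide, and libraries of total RNA hold both kinds. Mature sensory neurons do not divide, whereas precursors of blood cells and some glia do.

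The hairpin was found in the annotated transcript of 41 of the 61 genes, in 8 distinct versions of 16 bases. A single version was shared by 21 genes of H1, H2A, H2B and H3, and none of the 12 H4 genes with a hairpin had it. The commonest H4 version, found in 7 genes, occurred in no other family. The hairpins below, read from GENCODE M21 transcripts, show the commonest version (Hist1h1c), the common H4 version (Hist1h4d), rarer versions (Hist1h2bb, Hist2h4) and that of a gene whose level hardly differed between the groups (Hist3h2a). Capitals mark the stem-loop, with 5 flanking bases on each side.
Hist1h1c: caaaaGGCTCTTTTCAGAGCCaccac
Hist1h2bb: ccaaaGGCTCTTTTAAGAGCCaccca
Hist1h4d: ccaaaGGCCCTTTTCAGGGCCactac
Hist2h4: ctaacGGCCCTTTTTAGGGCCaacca
Hist3h2a: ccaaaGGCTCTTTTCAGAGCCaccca
No match was found in the annotated transcripts of the other 20 genes. Of these, 18 have short annotated transcripts of 312 to 743 bases, such as the 381 bases of Hist1h2bn, so a hairpin beyond the annotated end would be missed. Hist1h2bc (1156 bases) and Hist2h2be (2620 bases) are longer and hold no match either.

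Genes of one family can share long stretches of sequence, and reads from such stretches cannot be given to a single gene. Of the 61 genes, 25 had under 50% of their 75-base stretches absent from the transcripts of all other genes, and 10 had under 20%. The comparison covered both strands and every other gene, gene models at the same place included. These counts therefore do not measure sharing within a family alone. Hist1h1c (93.3%) and Hist1h4d (96.3%) could be read along nearly their whole length, whereas Hist1h3h (6.5%) and Hist1h2ah (8.5%) could not. Another annotated gene overlaps 5 of the 61 on the same strand (Hist1h1e, Hist1h2be, Hist1h2ac, Hist2h2bb and Hist3h2a) and 18 on the other strand. The counts of all these genes are therefore uncertain.

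Histone genes together took 1533, 994 and 1431 CPM in vehicle replicates 1, 2 and 3, and 3846, 1654 and 1609 CPM in vincristine replicates 1, 2 and 3. The vincristine values were all above the vehicle values, but replicates 2 and 3 exceeded the highest vehicle library only slightly, and replicate 1 was far above every other library. The vehicle mean was 1319 ± 286 CPM and the vincristine mean 2370 ± 1279 CPM (SD, n = 3 each), a ratio of 1.80. Without vincristine replicate 1 the ratio was 1.24. The summed markers of neutrophil precursors (350 to 587 CPM in vehicle and 3113, 1101 and 1320 CPM in vincristine replicates 1 to 3) and of red cell precursors (610 to 739, and 3132, 1447 and 1641 CPM) were also highest in vincristine replicate 1, and their part in the histone sums was not tested.

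**Figure D1:**
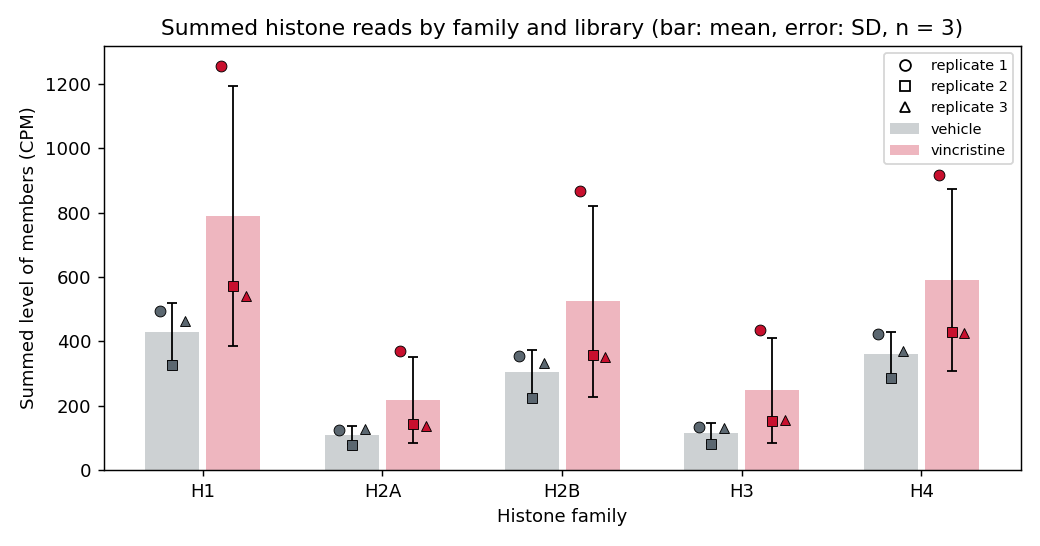
Summed level of the histone genes of each family (y axis, CPM) in the vehicle and vincristine libraries. Bars are means, error bars SDs over 3 libraries and points single libraries. Vincristine replicate 1 is the highest point in each family (1255 CPM for H1 and 371 CPM for H2A), and vehicle replicate 2 the lowest.

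In the test of each gene (edgeR's quasi-likelihood test over 16706 genes with Benjamini-Hochberg adjustment), none of the 56 histone genes tested passed an adjusted p of 0.05 in either direction, against 0.293% of all genes called higher and 0.0658% called lower. The smallest edgeR adjusted p among them was 0.307. At an unadjusted p under 0.05 there were 17 of 56 higher, against 8.1% of all genes tested, and 0 lower, against 3.27%. DESeq2 also called 0 of the 56, against 2.92% of all genes called higher and 0.491% lower, and its smallest adjusted p was 0.0642. All 56 genes had a positive log2 fold change by edgeR, against 49.3% of all genes tested, although Hist3h2a, at 0.002, was at -0.005 and -0.001 with RLE and upper-quartile scaling. The median over the 56 was 0.95, against -0.003 over all genes tested.

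The pattern over single libraries was shared by almost all of them. Vincristine replicate 1 held the highest level of 54 of the 56 genes, against 32.8% of all genes tested. Vehicle replicate 2 held the lowest level of 52, against 19.8% of all genes. For 25 of the 56 every vincristine library lay above every vehicle library, against 11.5% of all genes, and for 0 below, against 9.51%. Against the vehicle mean, the median over the 56 on the log2(CPM + 0.5) scale was 1.76, 0.36 and 0.27 in vincristine replicates 1 to 3, and it was 0.24, -0.45 and 0.20 in vehicle replicates 1, 2 and 3. With vincristine replicate 1 left out, the median log2 fold change was 0.30 with 48 of 56 positive, against 49.9% of all genes. In that fit 0 of 56 histone genes passed (edgeR, against 1.79% of all genes called higher) and 11 had an unadjusted p under 0.05 and a positive sign, against 8.78% of all genes. Without vehicle replicate 2, the median was 0.74, and 0 of 57 histone genes were higher at an unadjusted edgeR p under 0.05. The share of all genes at that p was not computed for this fit, so the 0 cannot be set against it. Of all 17003 genes tested in it, 0 passed the adjusted threshold.

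**Figure D2:**
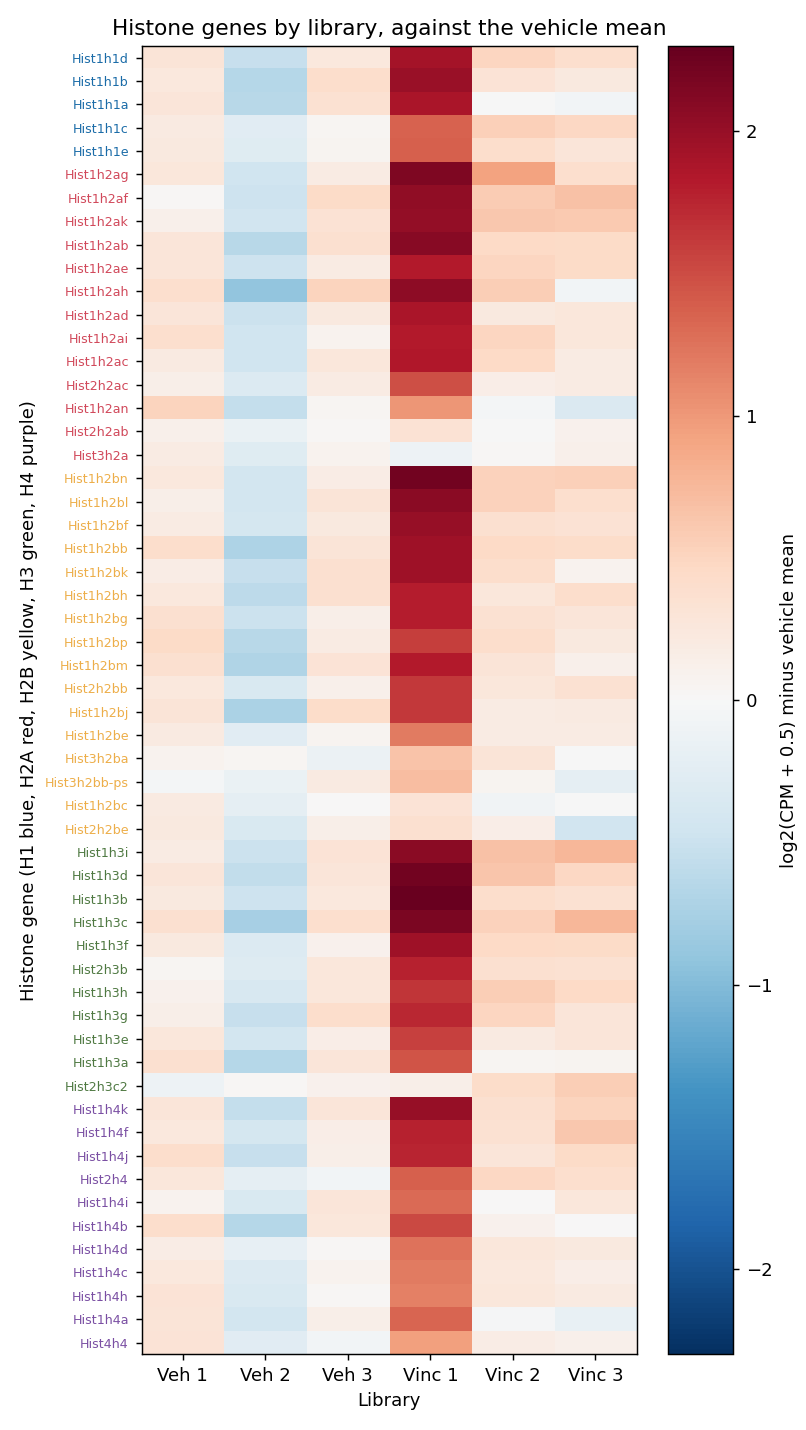
Level of each tested histone gene (rows, grouped by family) in each library (columns), as log2(CPM + 0.5) with the vehicle mean subtracted. The column of vincristine replicate 1 is dark red in all but a few rows (median 1.76), and that of vehicle replicate 2 is blue in most (median -0.45).

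H1 histones bind the DNA between nucleosomes, and their genes gave 32.4% to 32.9% of the histone reads in vehicle and 32.6% to 34.7% in vincristine. Hist1h1c was the most abundant of all 61, with 14.8% of all histone reads. It had 219, 159 and 195 CPM in the vehicle libraries against 486, 277 and 265 CPM after vincristine. The groups did not overlap, and the log2 fold change was 0.84 ± 0.27 (SE; edgeR adjusted p = 0.307, DESeq2 adjusted p = 0.0695). Without vincristine replicate 1 it was 0.50, with an edgeR adjusted p of 0.151. Hist1h1e (0.75 ± 0.31) and Hist1h1d (1.07 ± 0.44) also had groups that did not overlap, with edgeR adjusted p = 0.415 and 0.429. With Hist1h1c these made 3 of the 5 H1 genes tested, against 11.5% of all genes with vincristine higher.

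The H1 genes did not share the same pattern in the other vincristine libraries. Hist1h1a had 45.7, 24.2 and 48.4 CPM in the vehicle libraries against 140, 37.6 and 36.3 CPM after vincristine. Vincristine replicates 2 and 3 thus lay between vehicle libraries, and the log2 fold change went from 0.85 to -0.09 without vincristine replicate 1. Hist1h1b had 41.9, 22.5 and 47.2 CPM in the vehicle libraries against 142, 44.2 and 41.5 CPM after vincristine, with groups that overlapped in the same way. Hist1h1t, a linker histone gene of the testis, had at most 3 reads in any library and was not tested.

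H2A and H2B form the dimers on the outer faces of the nucleosome. Over 13 H2A genes tested the median log2 fold change was 1.03, and 5 of these had groups that did not overlap, against 11.5% of all genes with vincristine higher. Hist1h2ak, the most abundant H2A gene, had 25.3, 16.9 and 29.3 CPM in the vehicle libraries against 96.6, 36.2 and 35.5 CPM after vincristine (log2 fold change 1.23 ± 0.42, edgeR adjusted p = 0.349). Each vincristine library lay above each vehicle library, and the value was 0.59 without vincristine replicate 1. The largest log2 fold change of any histone gene was that of Hist1h2ag, 1.42 ± 0.50 (edgeR adjusted p = 0.360), from 64, 38 and 67 reads in vehicle and 187, 114 and 102 in vincristine. Hist1h2af was at 1.25 ± 0.45 (edgeR adjusted p = 0.368). Only 13.2% of the 75-base stretches of Hist1h2af and 22.4% of those of Hist1h2ag occur in no other gene.

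H2B genes had a median of 0.91 over 16 tested, and the groups of 5 did not overlap, against 11.5% of all genes. Their summed levels had a ratio of 1.72 (1.16 without vincristine replicate 1). Hist1h2bn had 28.2, 17.7 and 26.8 CPM in the vehicle libraries against 113, 34.6 and 34.9 CPM after vincristine (log2 fold change 1.32 ± 0.49, edgeR adjusted p = 0.372). Here too the 3 vincristine libraries were above the 3 vehicle libraries, with replicate 1 far ahead. Hist1h2bl was at 1.21 ± 0.49 (edgeR adjusted p = 0.410). Hist2h2bb, with the most reads of the H2B genes, had 62.7, 41.3 and 57.2 CPM in the vehicle libraries against 164, 63.8 and 67.8 CPM after vincristine. None of its 75-base stretches is its own in GENCODE M21, where another gene model contains it, so this level may include reads of that transcript.

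H3 genes, whose products carry many of the marks read by chromatin proteins, had the largest ratio of summed levels. Their sums were 134, 80.6 and 133 CPM in the vehicle libraries against 436, 153 and 155 CPM after vincristine, a ratio of 2.14 (1.33 without vincristine replicate 1). The median log2 fold change over the 11 tested was 1.05, and 8 of the 11 had groups that did not overlap, against 11.5% of all genes. Hist1h3i had 6.89, 4.06 and 7.5 CPM in the vehicle libraries against 26.7, 9.87 and 10.4 CPM after vincristine, with a log2 fold change of 1.33 ± 0.44 (edgeR adjusted p = 0.325, DESeq2 adjusted p = 0.0642). Hist1h3f, the most abundant, had 33.7, 22.9 and 30.8 CPM in the vehicle libraries against 112, 39.7 and 39.4 CPM after vincristine (1.12 ± 0.42, edgeR adjusted p = 0.382). In both genes the lowest vincristine library was above the highest vehicle library. The share of H3 among histone reads was 8.1% to 9.3% in vehicle and 11.3%, 9.2% and 9.6% in vincristine replicates 1, 2 and 3.

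H4, which pairs with H3 at the centre of the nucleosome, had the smallest ratio of the 5 families over all 6 libraries. The H4 sums were 423, 286 and 372 CPM in the vehicle libraries against 917, 428 and 425 CPM after vincristine, a ratio of 1.64. Without vincristine replicate 1 it was 1.18, and H2B then had the smallest ratio, 1.16. The median log2 fold change was 0.66 over 11 tested, and 4 had groups that did not overlap, against 11.5% of all genes. Hist2h4 had 33.0, 23.9 and 26.2 CPM in the vehicle libraries against 72.3, 38.4 and 36.2 CPM after vincristine (0.82 ± 0.28, edgeR adjusted p = 0.350). Hist1h4d, the second most abundant histone gene, had 120, 93.7 and 109 CPM in the vehicle libraries against 256, 129 and 126 CPM after vincristine (0.66 ± 0.29, edgeR adjusted p = 0.455). Both kept every vincristine library above every vehicle library, as did Hist1h4f (1.04 ± 0.38) and Hist1h4k (1.12 ± 0.47). H4 genes took 26.0% to 28.7% of histone reads in vehicle and 23.8%, 25.9% and 26.4% in vincristine replicates 1, 2 and 3. The differences between families were not tested.

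**Figure D3:**
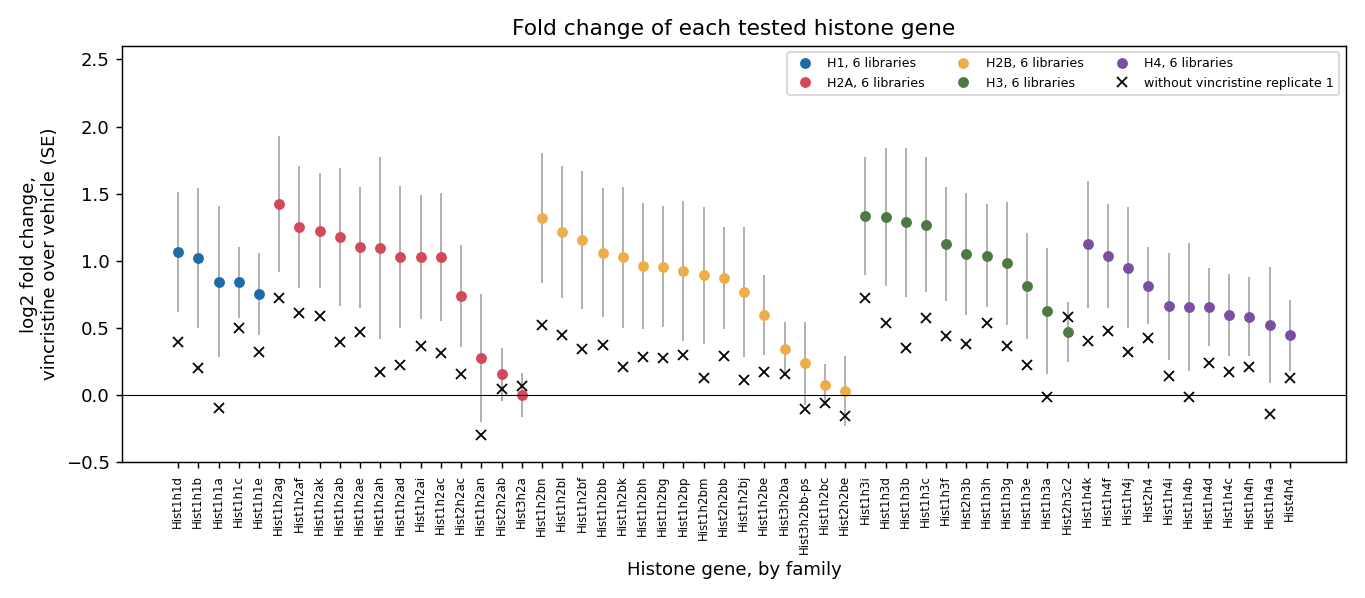
Log2 fold change of vincristine over vehicle for each tested histone gene (y axis), grouped by family (x axis); coloured points with SE bars use 6 libraries and crosses leave out vincristine replicate 1. The points span 0.002 to 1.42, and the highest cross is Hist1h2ag at 0.72.

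Other abundant genes had log2 fold changes of 0.60 ± 0.30 (Hist1h4c), 0.81 ± 0.40 (Hist1h3e), 0.89 ± 0.51 (Hist1h2bm), 1.17 ± 0.51 (Hist1h2ab) and 1.27 ± 0.50 (Hist1h3c). Of these Hist1h2ab and Hist1h3c had groups that did not overlap. Hist1h3h, the H3 gene with the second smallest p, was at 1.04 ± 0.39 (edgeR adjusted p = 0.375).

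Levels per length were compared in CPM per kilobase of annotated exon. In vehicle the highest were Hist2h2bb, at 141 CPM per kilobase and with the limit given above, Hist1h1c at 123, Hist1h4h at 117 and Hist1h4d at 94.6. These values depend on the gene models, which differ in how much sequence they place after the hairpin. Hist1h1d has a model of 7425 bases and came to 9.004 CPM per kilobase, although it was the fourth gene by reads.

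A few genes did not follow the others. Those below 0.5 in vincristine replicate 1 on the log2(CPM + 0.5) scale against the vehicle mean, a limit set after the values were seen, were Hist3h2a (-0.12), Hist2h3c2 (0.14), Hist1h2bc (0.32), Hist2h2ab (0.33) and Hist2h2be (0.36). The other 51 lay between 0.65 and 2.27. Hist1h2bc, the eighth gene by reads, had 65.6, 49.3 and 57.7 CPM in the vehicle libraries against 71.3, 53.8 and 56.8 CPM after vincristine. Its log2 fold change was 0.07 ± 0.15 (edgeR adjusted p = 0.884). Hist2h2be had 11.9, 7.82 and 11.1 CPM in the vehicle libraries against 13.2, 11.3 and 7.28 CPM after vincristine (0.03 ± 0.26, edgeR adjusted p = 0.976). Hist3h2a had 11.9, 8.49 and 11.1 CPM in the vehicle libraries against 9.52, 10.6 and 11.4 CPM after vincristine (0.002 ± 0.17, edgeR adjusted p = 0.997). In all 3 genes the groups overlapped, and the SEs leave room for small differences. Hist2h3c2 had few reads, between 29 and 82 per library. Its groups did not overlap, its highest level was in vincristine replicate 3, and its log2 fold change was 0.47 ± 0.22 (edgeR adjusted p = 0.483).

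Hist1h2bc, Hist2h2be and Hist3h2a stand on a list of 5 histone genes known to give polyadenylated transcripts in cells that do not divide. The list's other members are Hist1h1c and Hist4h4. The median log2 fold change of the 5 was 0.07, against 0.98 over the 51 other histone genes tested. By edgeR 0 of 5 passed, against 0.293% of all genes called higher. This list too was chosen with earlier results of these data known, so the contrast is a description and not a test. The list did not move as a unit: Hist1h1c was at 0.84, as given above, and Hist4h4 at 0.45 ± 0.26 (edgeR adjusted p = 0.575). The length annotated after the hairpin is 1643 bases in Hist3h2a, 2445 in Hist4h4 and 2010 in Hist1h2ac, and the 17 genes with over 300 bases had a median log2 fold change of 0.81 with a range of 0.002 to 1.33. The 21 tested genes with at most 300 bases had a median of 0.98 and a range of 0.35 to 1.42. The 18 with no hairpin in the annotated transcript, among them Hist1h2bc, Hist2h2be and Hist2h2ab, had a median of 1.03 and a range of 0.03 to 1.33. The ranges of the 3 sets overlapped. Which end the reads of a gene carried cannot be seen in counts per gene.

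Many H2A and H2B genes lie head to head, with starts close together and a promoter region in common. The annotation gave 12 head-to-head pairs among the 61 genes, 11 of an H2A with an H2B gene and 1 of Hist1h2bh with Hist1h3f, and in 11 of them both genes were tested. In 7 of these the log2 fold changes differed by at most 0.24, such as Hist1h2ak (1.23) and Hist1h2bn (1.32), or Hist1h2ae (1.10) and Hist1h2bg (0.96). The largest gap was between Hist1h2ac (1.03 ± 0.48) and Hist1h2bc (0.07 ± 0.15), whose starts are 251 bases apart. Reads of Hist1h2ac per read of Hist1h2bc were 0.102, 0.0825 and 0.121 in vehicle and 0.308, 0.151 and 0.117 in vincristine. Replicate 1 was thus well above the others, replicate 3 lay within the vehicle values, and the groups overlapped. Hist2h2ac (0.74 ± 0.38) and Hist2h2be (0.03 ± 0.26) are 239 bases apart. Reads of Hist2h2ac per read of Hist2h2be were 1.86, 2.07 and 2.08 in vehicle and 4.37, 1.99 and 3.18 in vincristine, where replicate 2 lay within the vehicle range. Hist1h2ag (1.42) with Hist1h2bj (0.77) and Hist1h2an (0.28) with Hist1h2bp (0.93) were the other pairs with a larger gap.

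**Figure D4:**
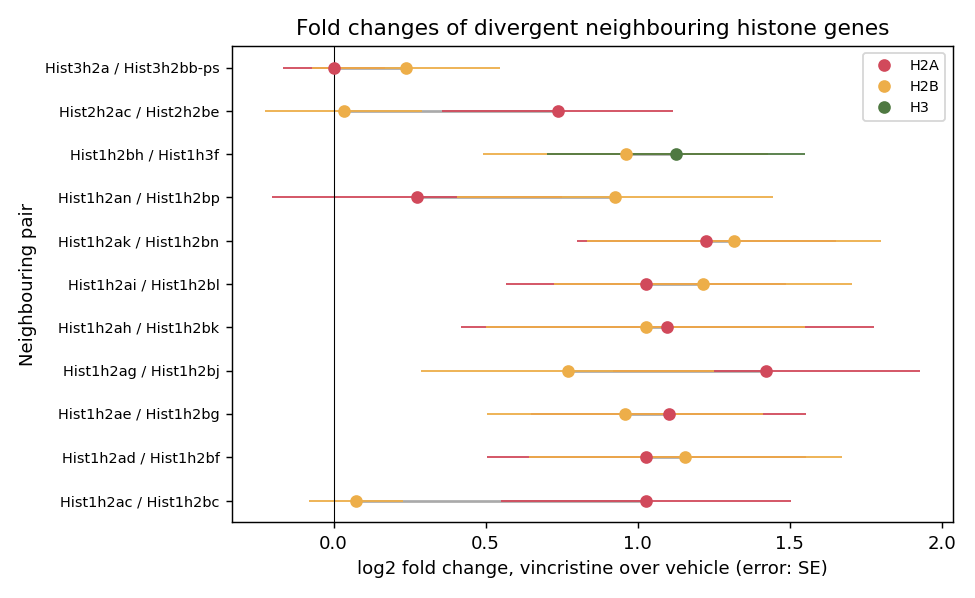
Log2 fold changes (x axis, with SE) of the 2 genes of each head-to-head pair in which both were tested (y axis). The partners differ by at most 0.24 in 7 pairs, and are farthest apart in Hist1h2ac and Hist1h2bc (1.03 and 0.07) and in Hist2h2ac and Hist2h2be (0.74 and 0.03).

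The stretches between the starts of these pairs are shown because both genes of a pair share the sequence while they differ in fold change. Another pair, in which both fold changes were near 1 (Hist1h2ae with Hist1h2bg), is shown beside them. Each runs back from the H2A gene's start in RefSeq's GRCm38.p6 annotation to the H2B gene's start in GENCODE M21, and is printed on the minus strand, at chr13:23683960-23684198 (Hist1h2ac), chr3:96220881-96221118 (Hist2h2ac) and chr13:23571221-23571395 (Hist1h2ae). Capitals mark matches on either strand to the CCAAT box (CCAAT), the TATA box (TATAAA) and the octamer (ATTTGCAT), a sequence known from H2B promoters.
Hist1h2ac: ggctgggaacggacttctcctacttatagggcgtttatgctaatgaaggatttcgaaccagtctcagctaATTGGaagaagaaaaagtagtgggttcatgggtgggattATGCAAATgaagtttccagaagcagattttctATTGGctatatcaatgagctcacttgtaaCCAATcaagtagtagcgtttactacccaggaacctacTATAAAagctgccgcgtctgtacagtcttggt
Hist2h2ac: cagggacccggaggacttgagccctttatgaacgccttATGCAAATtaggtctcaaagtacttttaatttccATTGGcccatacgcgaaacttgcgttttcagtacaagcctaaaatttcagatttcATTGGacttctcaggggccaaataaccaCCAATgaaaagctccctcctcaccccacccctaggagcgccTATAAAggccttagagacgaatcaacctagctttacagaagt
Hist1h2ae: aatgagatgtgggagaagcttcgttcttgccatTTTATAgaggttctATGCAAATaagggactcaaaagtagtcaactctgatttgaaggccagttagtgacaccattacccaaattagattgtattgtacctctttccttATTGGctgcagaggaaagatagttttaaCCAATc
All 3 stretches hold the octamer on the other strand, 130, 200 and 128 bases before the H2A start. In the first and second, TATAAA stands 32 and 42 bases before that start on the printed strand.

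Promoter windows of 300 bases, from 250 before to 50 after the start, were matched for 53 of the 61 genes. The octamer was in 6 of 13 H2A windows and 6 of 13 H2B windows and in none of the 27 windows of H1, H3 and H4, against 1.74% of 32851 windows of all genes. CCAAT was in all windows of H1, H2A, H2B and H3 and in 3 of 12 of H4, against 37.4% of all windows. TATAAA was in 32 of 53, against 13.6%. None of the matches marked in the 3 stretches overlap. Windows of head-to-head partners share sequence, and a match is a string and not a measured binding site.

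Genes around histone production were followed with lists. For transcription and processing of histone transcripts, 26 genes were tested, 0 passed by edgeR or DESeq2, and the median log2 fold change was 0.04. Of all genes, 0.293% were called higher by edgeR and 2.92% by DESeq2. The unadjusted p was under 0.05 for 2 higher genes, against 8.1% of all genes, and for 0 lower genes, against 3.27%. Slbp had 26.0, 20.4 and 29.3 CPM in the vehicle libraries against 36.9, 24.4 and 24.7 CPM after vincristine (0.18 ± 0.21, edgeR adjusted p = 0.776). Its groups overlapped, with vincristine replicate 1 highest and vehicle replicate 2 lowest, as for the histone genes. Npat, the coactivator of histone genes, had 33.0, 32.1 and 35.7 CPM in the vehicle libraries against 30.7, 33.3 and 29.9 CPM after vincristine, with no such order. Zcchc6, a uridylyl transferase gene, had the smallest p of the list (0.40 ± 0.13, edgeR adjusted p = 0.329), before Srrt (0.30 ± 0.12, edgeR adjusted p = 0.385) and Cstf3.

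Replacement histone variants, which are made outside S phase as well, had 11 of 12 genes tested, 0 called by edgeR or DESeq2 and a median of 0.14. Of all genes, 0.293% were called higher by edgeR and 2.92% by DESeq2. The unadjusted p was under 0.05 for 1 higher gene, against 8.1% of all genes, and for 0 lower genes, against 3.27%. H2afx, whose transcripts also occur in a stem-loop form, had 36.0, 24.0 and 43.7 CPM in the vehicle libraries against 102, 45.6 and 47.4 CPM after vincristine (0.90 ± 0.36, edgeR adjusted p = 0.405). Of the 11 variants tested 1, H2afx, had groups that did not overlap, with vincristine higher, against 11.5% of all genes. Cenpa, the centromeric H3 variant, was at 0.83 ± 0.36 (edgeR adjusted p = 0.454). Vehicle and vincristine means were 169 ± 16.5 and 187 ± 18.4 CPM for H3f3b, and 114 ± 8.63 and 98.5 ± 5.24 CPM for H1f0, the linker variant of non-dividing cells (SD, n = 3 each). Neither passed (edgeR adjusted p = 0.707 and 0.529). H2afz (0.07) and H3f3a (0.40) turned to -0.08 and -0.09 without vincristine replicate 1.

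Histone chaperones had 20 genes tested and a median of 0.15, with 0 called by edgeR or DESeq2, against 0.293% and 2.92% of all genes called higher. At an unadjusted p under 0.05, 0 were higher, against 8.1% of all genes, and 0 lower, against 3.27%. Asf1b, a chaperone of dividing cells, was at 0.88 ± 0.48 (edgeR adjusted p = 0.547). Cabin1 (0.21 ± 0.11) and Ubn1 (0.18 ± 0.10) were at edgeR adjusted p = 0.517 and 0.539.

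Among 40 genes of DNA replication and S phase, 0 passed by edgeR, against 0.293% of all genes called higher. DESeq2 called 1 higher, E2f2, against 2.92% of all genes. The unadjusted p was under 0.05 for 2 higher genes, against 8.1% of all genes, and for 1 lower gene, against 3.27%. The median log2 fold change was 0.35. E2f2, a cell cycle transcription factor gene, had 30.4, 25.5 and 33.8 CPM in the vehicle libraries against 120, 57.9 and 66.4 CPM after vincristine (1.44 ± 0.28, edgeR adjusted p = 0.131), and it passed without vincristine replicate 1 (1.06, edgeR adjusted p = 0.00898). Its vincristine libraries were all well above its vehicle libraries. Pcna, the sliding clamp of DNA polymerase, had 24.6, 20.4 and 22.7 CPM in the vehicle libraries against 36.2, 23.4 and 22.6 CPM after vincristine (0.27 ± 0.20, edgeR adjusted p = 0.649). Cdc45 was at 0.68 ± 0.27 and Dut, which removes dUTP, at -0.25 ± 0.11. Without vincristine replicate 1 the list's median was -0.003, against 0.30 for the histone genes.

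Among 30 genes of G2 and mitosis, 0 passed by edgeR and 7 were called higher by DESeq2, against 0.293% and 2.92% of all genes. The unadjusted p was under 0.05 for 24 higher genes, against 8.1% of all genes, and for 0 lower genes, against 3.27%. For 23 of the 30 every vincristine library lay above every vehicle library, against 11.5% of all genes. The median log2 fold change was 1.07, and 0.52 without vincristine replicate 1. Mki67, a marker of cycling cells, had 119, 93.2 and 168 CPM in the vehicle libraries against 550, 223 and 245 CPM after vincristine (1.42 ± 0.39, edgeR adjusted p = 0.240). Ube2c was at 1.63 ± 0.38 (edgeR adjusted p = 0.187), and at 1.10 with an edgeR adjusted p of 0.0277 without vincristine replicate 1. Cenpe was at 1.26 ± 0.33 (edgeR adjusted p = 0.220). Cdc25c, with 13 to 28 reads in vehicle and 41 to 78 in vincristine, was at 1.67 ± 0.405 (edgeR adjusted p = 0.1975, DESeq2 adjusted p = 0.0129). Top2a was at 1.02 ± 0.43 (edgeR adjusted p = 0.436), and its groups overlapped. The medians of this list in single libraries were 0.11, -0.40 and 0.28 in vehicle and 1.72, 0.50 and 0.61 in vincristine replicates 1, 2 and 3. The highest and lowest library were the same as for the histone genes. That also held for the lists of S phase, chaperones and histone transcript processing (0.795, 0.271 and 0.052 in vincristine replicate 1). Replacement variants too were highest in vincristine replicate 1 (0.309), but lowest in vincristine replicate 3 (-0.193).

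**Figure D5:**
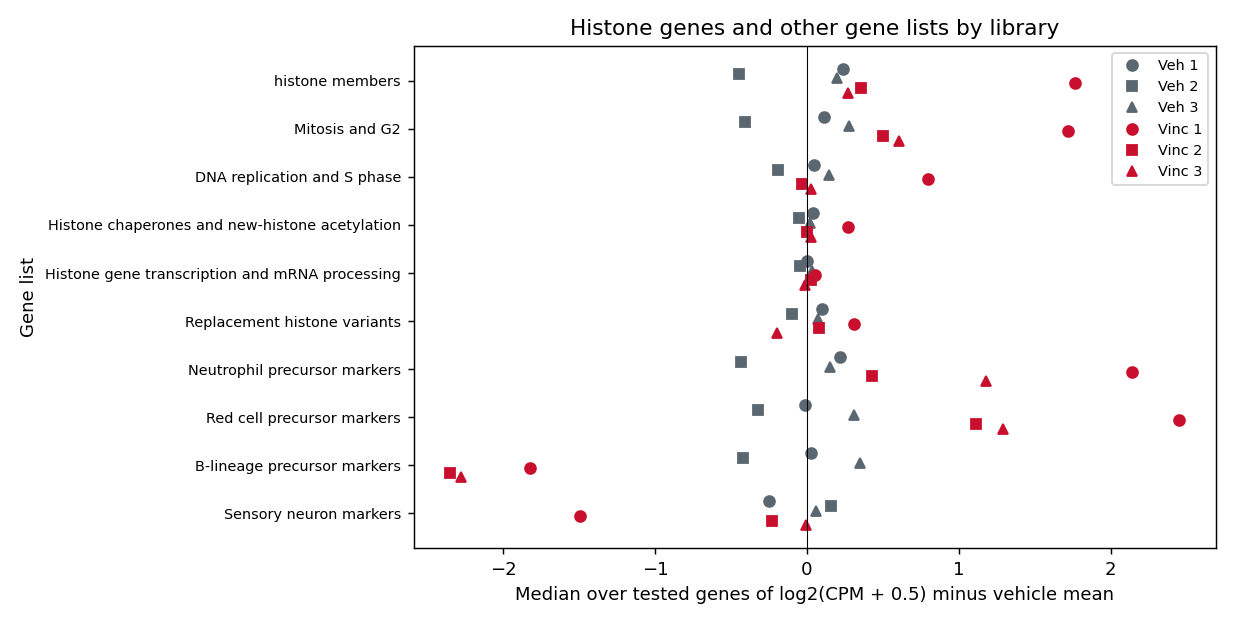
Median over the tested genes of each list of log2(CPM + 0.5) minus the vehicle mean (x axis), for each library; grey is vehicle, red vincristine, and the marker shape gives the replicate. Histone genes, mitosis genes and the markers of neutrophil and red cell precursors have vincristine replicate 1 farthest right (1.76, 1.72, 2.14 and 2.45). So do the lists of S phase, chaperones, replacement variants and histone transcript processing, at smaller values (0.795, 0.271, 0.309 and 0.052). Sensory neuron markers have it farthest left (-1.49).

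Lists of markers of other cells were read in the same way. Neutrophil precursor markers, 12 of 12 tested and none at 0 reads in all libraries, had 0 called by edgeR, 5 by DESeq2 and 9 higher at an unadjusted p under 0.05, against 0.293%, 2.92% and 8.1% of all genes. Red cell precursor markers, 15 of 16 found and tested, had 0 called by edgeR, 14 by DESeq2 and 14 higher at an unadjusted p under 0.05, against the same shares of all genes. In both lists vincristine replicate 1 had the highest sum. B-lineage precursor markers went the other way, none at 0 reads in all libraries, from 207 to 261 CPM in vehicle to 108 to 162 CPM in vincristine, with 6 of 12 tested called lower by edgeR, against 0.0658% of all genes. Their median on the log2(CPM + 0.5) scale against the vehicle mean was -1.82, -2.35 and -2.27 in vincristine replicates 1, 2 and 3. By this median replicate 1 was the least low of the 3, whereas by sum it was the lowest (108, 162 and 162 CPM). Satellite glia markers summed to 3797 to 4248 CPM in the vehicle libraries against 3924 to 4210 CPM after vincristine. Of 10 tested, 0 were called by edgeR, 0 by DESeq2 and 1 was higher at an unadjusted p under 0.05. The shares of all genes higher were again 0.293%, 2.92% and 8.1%. The part of these cells in the histone values was not tested.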

How the data were processed

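The deposited tables give raw counts of reads per gene symbol in each of the 6 libraries, with no normalization by the authors. Per the submitters' processing notes, STAR, SAMtools and HTSeq were used on mm10 (GRCm38); per the labels' protocols, libraries were stranded total RNA. Their versions, the annotation and the strand setting: not given in the sources used here. HTSeq usually drops reads with several alignments, 31.1% to 40.5% of tallied alignments here, which lowers counts of near-identical histone copies. Summary lines of the counter were kept out of library sizes.

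The test was edgeR's (4.0.16, R 4.3.3) after filterByExpr (minimum count 10, leaving 16706 genes) and TMM scaling, with glmQLFit and glmQLFTest (robust) on treatment alone, two-sided, with Benjamini-Hochberg adjustment over all genes tested and a threshold of 0.05. The steps were tested on simulated counts. SE is the log2 fold change divided by the square root of F. DESeq2 1.42.0 and limma 3.58.1 (voom), other scalings and filters, a replicate block, an adjusted p of 0.1 and fits without each library were alternatives. Each library is a pool, so p-values measure the spread between pools. Replicates of a group differed far beyond sampling noise (chi-square per degree of freedom 12.5 to 90.7).

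The histone genes and all lists were chosen with earlier results of these data known. Genes were named by this rule: the 25 histone genes with the most reads, the 3 of each family with the smallest p, any called, up to 3 of each list on histone production and the cell cycle, and 10 fixed genes. Others, such as those of the head-to-head pairs, were named after their values were seen. Gene models come from GENCODE M21 (GRCm38), promoters from RefSeq (GRCm38.p6), matched through gene IDs. The marker Chil3 was read as Chi3l3 and Epb42 as Epb4.2. Low counts limit the precision of genes with few reads.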

Additional observations from a re-analysis of the deposited data

How the results depend on the processing

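Under each alternative run at an adjusted p of 0.05, 0 histone genes passed in either direction; these were DESeq2, limma-voom, RLE, upper-quartile and total-count scaling, both other filters, the replicate block, leaving out each library and, added after the data were seen, leaving out same-strand overlaps and pseudogenes. A threshold of 0.1 was applied to the edgeR fit alone, where 0 passed; DESeq2 gave adjusted p-values under it, such as 0.0642 for Hist1h3i and 0.0695 for Hist1h1c, as did the replicate block (0.0779 for Hist2h4). The median log2 fold change of the histone genes ranged from 0.77 (limma-voom) to 0.99 (total counts) over the scalings, filters and tools, and was 0.30 without vincristine replicate 1 and 0.74 to 1.21 without any other library. Of all genes tested, 60 passed in the main fit, 569 by DESeq2, 346 without vincristine replicate 1, 18 without replicate 3, 6 without replicate 2 and 0 by edgeR without any vehicle library. Of 126 genes tested from the lists on histone production and the cell cycle, 0 passed higher in the main fit and 8 by DESeq2. The shares of all genes were 0.293% and 2.92%. With the replicate block 2 passed higher, and 0 to 2 did when 1 library was left out.

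The replicate numbers share no stated source. Same-numbered libraries had correlated deviations of 0.50, 0.30 and -0.07, and vincristine replicate 3 correlated best with vehicle replicate 2 (0.59), so the block was not taken as a pairing. With the replicate block 261 genes passed in all, against 60 in the main fit, and 0 of them were histone genes. In the block fit 40 of 56 histone genes were higher at an unadjusted p under 0.05 (median 0.85, smallest adjusted p 0.0779). The share of all genes at that p was not computed for the block fit, so the 40 cannot be set against it.

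Among the histone genes and the named genes of the lists, signs turned in the following. Hist3h2a was at -0.003 by DESeq2, -0.005 with RLE and -0.001 with upper-quartile scaling, and -0.006 with the filter of 10 reads in all; Hist2h2be was at -0.035 by limma-voom. With each library left out in turn, Hist1h1a ranged from -0.094 to 1.18, Hist1h2an from -0.30 to 0.61, Hist1h2bc from -0.056 to 0.18, Hist1h3a from -0.013 to 0.89, Hist1h4a from -0.14 to 0.80, Hist1h4b from -0.016 to 0.94, Hist2h2be from -0.15 to 0.25, Hist3h2a from -0.12 to 0.10 and Hist3h2bb-ps from -0.10 to 0.46. Slbp ranged from -0.042 to 0.30, H2afz from -0.077 to 0.22 and H3f3a from -0.094 to 0.67. Signs also turned in list genes not named above, which are not all given here. Of the S phase list, Cdc6 went from 0.421 to -0.227 and Mcm6 from 0.321 to -0.135 without vincristine replicate 1. The cause was not tested.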

Other observations

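The 22 tested histone genes with under 50% of their 75-base stretches to themselves had a median log2 fold change of 1.04 (range 0.15 to 1.42), and the 34 with at least 50% one of 0.84 (range 0.002 to 1.33). The 5 histone genes too low to be tested had at most 13 reads in any library. Hist1h4m was at 7, 6 and 7 reads in vehicle and 12, 12 and 13 in vincristine, and Hist1h4n at 4, 3 and 2 reads in vehicle and 10, 6 and 9 in vincristine.

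Other markers were measured in the same libraries. Mature neutrophil markers summed to 577 to 1017 CPM in vehicle and to 5585, 1792 and 2022 CPM in vincristine replicates 1, 2 and 3, and 0 of 12 were called by edgeR against 11 by DESeq2, with 11 at an unadjusted p under 0.05. Macrophage markers summed to 439 to 513 CPM and to 946, 632 and 656 CPM, with 0 of 13 called by edgeR, 6 by DESeq2 and 11 at an unadjusted p under 0.05. Of 10 Schwann cell and myelin markers and 8 endothelial markers, 0 were called by either tool and 0 were at an unadjusted p under 0.05, with median log2 fold changes of 0.03 in both lists. For all these lists, the shares of all genes called higher were 0.293% by edgeR and 2.92% by DESeq2. At an unadjusted p under 0.05, 8.1% of all genes were higher and 3.27% lower.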
